A study of Homo sapiens with 8 samples.

Results

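The BCL2 family genes described here were 10, taken by gene symbol: the pro-survival genes BCL2, BCL2L1 and MCL1, the effectors BAX and BAK1, and the BH3-only genes BAD, BID, BBC3, PMAIP1 and BCL2L11. Each was found once among the 60558 genes listed, of which 21400 were above 0 in at least 1 library and 14206 were tested, and all 10 members were among those tested. RNA-seq was performed on 2D human intestinal epithelial cells (hIECs) differentiated from H9, a human embryonic stem cell line. There were 4 groups of 2 libraries: normal hIECs, normal hIECs exposed to particulate matter (PM10), inflamed hIECs, which were given IFNγ and TNFα, and inflamed hIECs that were also exposed to PM10. The labels give a treatment of 10 days for all 8 libraries. By the authors' account, the cytokines were given over 10 days and PM10 only over the last part of that time. Nothing in the labels says that the 2 libraries of a group came from separate cultures. The p-values therefore measure only the spread between these libraries, which may be technical.

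Proteins of this family decide whether the outer membrane of the mitochondrion is opened, the step that releases cytochrome c and starts the intrinsic route of apoptosis. BAX and BAK1 form the pores, BCL2, BCL-XL (encoded by BCL2L1) and MCL1 hold them back, and BH3-only proteins, which sense stress, either bind the pro-survival proteins or engage the effectors. In the intestinal epithelium, the balance between these classes sets how readily cells die and are shed during inflammation. The values below are RNA levels. Binding, phosphorylation and cleavage, by which several of these proteins are controlled, were not measured.

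Sequence around the start sites is shown first for the genes whose levels set the results apart: PMAIP1, which had the largest increase among the members, BCL2L11, which had the largest decrease, and BBC3, the only member whose window held an interferon-type motif. All come from the RefSeq table for GRCh38.p14 and are written 5′ to 3′ on the strand of the gene. The first is the 250 bases before the start of PMAIP1 (chr18:59899746-59899995, plus strand), the second the 250 bases before a start of BCL2L11 (chr2:111120664-111120913, plus strand), and the third is bases 19 to 48 counted from the start of BBC3 (chr19:47232620-47232649, minus strand). Capitals mark motif matches: GGGCGG on either strand (GC box) in PMAIP1 and BCL2L11, GTAAACA (forkhead, FOXO) in BCL2L11, and the core of an interferon-stimulated response element (ISRE) in BBC3.
PMAIP1: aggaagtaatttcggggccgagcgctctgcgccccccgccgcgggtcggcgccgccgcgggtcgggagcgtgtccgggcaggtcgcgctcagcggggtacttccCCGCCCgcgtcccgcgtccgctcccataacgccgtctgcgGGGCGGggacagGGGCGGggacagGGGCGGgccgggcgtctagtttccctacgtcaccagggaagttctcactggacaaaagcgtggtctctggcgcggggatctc
BCL2L11: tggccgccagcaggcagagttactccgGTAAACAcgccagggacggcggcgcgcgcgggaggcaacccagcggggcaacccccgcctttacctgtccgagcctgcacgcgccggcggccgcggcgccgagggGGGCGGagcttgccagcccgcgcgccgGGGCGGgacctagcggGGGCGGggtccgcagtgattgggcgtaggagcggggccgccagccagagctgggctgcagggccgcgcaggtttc
BBC3: acaatgaGAAACTGAAAAAGAAAcggaatg

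The table held 15 windows for 9 of the 10 members (not MCL1), each reaching from 250 bases before to 50 bases after a start. The ISRE core was found in BBC3, as overlapping matches that begin 26 and 32 bases after the start, and in no other member; 3.57% of 35116 promoters held it. No window held TTCNNNGAA, the letters of a STAT site (7.66% of promoters), the NF-kB site (11.3%), or TGACGTCA, a cAMP response element (1.85%). The FOXO letters lay at position -223 from the start in BCL2L11 alone and were present in 3.42% of promoters, whereas GC boxes, present in 45% of promoters, were found in BCL2L1, BAX, BAK1, BAD, BID, PMAIP1 (4 matches) and BCL2L11 (3 matches) but not in BCL2 or BBC3. Motifs were searched on both strands. The cAMP, FOXO and GC box letters were added after the values were seen. A match is a description of letters, and the binding of any factor was not measured.

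Levels are given as FPKM, fragments scaled to the length of the transcript and to the size of the library, so that levels can be compared between genes. The FPKM of a library summed to 403354 to 468392, and the lowest value above 0 was 0.164 to 0.228, below which a gene is listed at 0. Mitochondrially encoded genes took 15.5% to 24.2% of this sum, with the highest share in normal replicate 2. The cytokines acted in the libraries labelled inflamed, where CXCL10, a chemokine induced by IFNγ, was at 1254 to 1314 FPKM against 1.15 to 1.74 in the others. Of 15 intestinal epithelial markers, 9 were at 0 in both normal libraries, among them CDX2, VIL1, CDH1, MUC2 and LYZ, and the summed level of the list was 658 to 667 FPKM in normal hIECs and 356 to 361 in inflamed hIECs. Nearly all of that sum was KRT8 and KRT18, keratins of simple epithelia that are not particular to the intestine. Their group means were 378 and 266 FPKM in normal hIECs and 215 and 134 in inflamed hIECs. Of the 5 intestinal markers tested, 3 fell and 1 rose with cytokines, both without and with PM10. Of all genes tested, 30.3% were called lower and 25.9% higher without PM10, and 39.6% and 25.8% with PM10. SOX9 fell from 14.2 to 3.92 FPKM as group means without PM10. LGR5 was the one that rose, from 2.32 to 5.47 FPKM without PM10 and from 2.32 to 8.10 with PM10 in both groups. All 10 mesenchymal markers were above 1 FPKM in every group. Their sums were 4208 to 4248 FPKM in normal hIECs and 3726 to 3735 with PM10. In inflamed hIECs they were 4428 to 4475, and 3750 to 3783 with PM10. With PM10 in inflamed hIECs, 6 of these markers fell and 1 rose, against 9.02% and 6.22% of all genes. The part of these markers in the changes of members was not tested. Pluripotency, endothelial and leukocyte markers were at or near 0. Of 8 neuronal markers, ELAVL3 and ELAVL4 were at 0 in all libraries, and the list summed to 200 to 210 FPKM in normal hIECs, 219.7 to 227.5 with PM10, 118.7 to 118.8 in inflamed hIECs and 134.3 to 136.8 in inflamed hIECs with PM10. Of the 6 neuronal markers tested, 4 fell and 1 rose with cytokines, both without and with PM10, beside the same shares of all genes. The part of neuronal markers in the falls of members with cytokines was not tested. The defining intestinal markers CDX2, VIL1 and CDH1 were thus not seen in the normal libraries, and in bulk RNA fewer cells of a type and less RNA per cell cannot be told apart.

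In normal hIECs, the members ranged from BAX at 50.1 ± 0.52 FPKM (SD, n = 2) to BCL2 at 1.22 ± 0.36. BAX was followed by BAD (40.4), MCL1 (38.2), BCL2L1 (15.6), BAK1 (10.5), PMAIP1 (8.82), BBC3 (5.46), BCL2L11 (3.61), BID (3.60) and BCL2 as group means. Only BCL2L11 and BID, neighbours in this order, overlapped between their libraries. In inflamed hIECs, PMAIP1 had moved to the third place behind BAX and MCL1, and BAD, BCL2L1, BAK1, BBC3, BID, BCL2L11 and BCL2 followed, with no overlap between neighbours. That order was the same in inflamed hIECs with PM10. In normal hIECs with PM10, MCL1 stood above BAD, and the libraries of PMAIP1 and BBC3 overlapped.

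**Figure D1:**
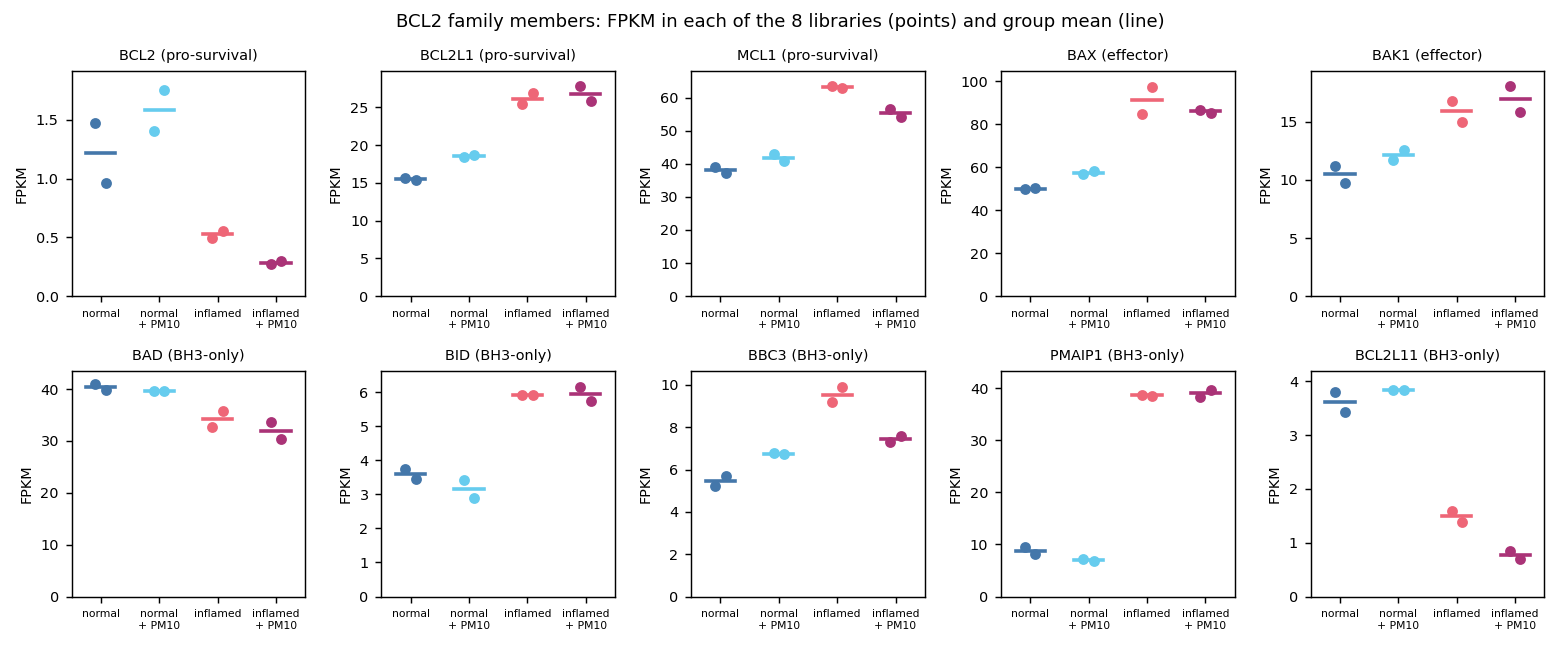
FPKM (y axis, linear from 0) of the 10 BCL2 family members in the 4 groups (x axis). Each point is 1 library and each line the mean of the 2 libraries of a group; PMAIP1 stood at 38.4 to 39.6 FPKM in the 4 cytokine-treated libraries and at 6.74 to 9.54 in the other 4, while BCL2 and BCL2L11 were low in the cytokine-treated libraries.

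The first question was how the cytokines changed the family, in the absence and in the presence of PM10. Without PM10, 7 of 10 members were higher and 3 were lower in inflamed than in normal hIECs, where 25.9% of all genes tested were called higher and 30.3% lower (limma on log2(FPKM + 1), adjusted p under 0.05). With PM10 in both groups, 6 members were higher and 3 lower, against 25.8% and 39.6% of all genes. PMAIP1 rose the most, BCL2L11 and BCL2 fell the most, and BAX, BAK1, BCL2L1, MCL1 and BID rose less than PMAIP1 in both comparisons. BCL2, counted as lower in both, entered the test only through libraries without cytokines. The median log2 fold change of the 10 members was 0.65 without PM10 and 0.42 with PM10, beside medians over all genes of -0.03 and -0.11. Fold changes below are on the log2(FPKM + 1) scale, which understates the change of low genes.

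Among the pro-survival genes, BCL2, the founding inhibitor of the family, had the lowest level. It stood at 1.47 and 0.966 FPKM in normal hIECs, 1.41 and 1.75 in normal hIECs with PM10, 0.497 and 0.554 in inflamed hIECs, and 0.271 and 0.297 in inflamed hIECs with PM10. All 4 libraries given cytokines were below all 4 that were not, and the 2 with PM10 were close to the lowest value above 0 that the files hold. BCL2 reached 1 FPKM only in libraries without cytokines, so it passed the filter for testing through the groups where it was high. The test of its fall is thus not independent of the filter. The log2 fold change with cytokines was -0.53 (SE 0.13, adjusted p = 0.0109) without PM10 and -1.004 (SE 0.13, adjusted p = 3.89e-04) with PM10. The first call was lost without inflamed replicate 1 (-0.50, adjusted p = 0.0532).

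BCL2L1, whose main product BCL-XL protects epithelial cells, moved the other way. Its level was 15.7 and 15.4 FPKM in normal hIECs, 18.4 and 18.7 with PM10, 25.5 and 26.9 in inflamed hIECs, and 27.8 and 25.8 in inflamed hIECs with PM10. The cytokine-treated libraries lay above the others in each setting, and BCL2L1 rose by a log2 fold change of 0.71 (SE 0.056, adjusted p = 3.96e-05) without PM10 and 0.51 (SE 0.056, adjusted p = 1.62e-04) with PM10. In annotation, 41.3% of the exon bases of BCL2L1 lie under ABALON on the opposite strand, which the unstranded libraries cannot separate; ABALON was at 0.459 to 2.13 FPKM.

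MCL1, a short-lived protein that binds BAK1 and several BH3-only proteins, was the most abundant pro-survival transcript. It was at 39.2 and 37.3 FPKM in normal hIECs, 43.0 and 40.7 with PM10, 63.6 and 62.8 in inflamed hIECs, and 56.6 and 54.1 in inflamed hIECs with PM10. The groups did not overlap, and inflamed hIECs without PM10 were the highest. MCL1 rose with cytokines by 0.71 (SE 0.052, adjusted p = 2.67e-05) without PM10 and by 0.39 (SE 0.052, adjusted p = 3.88e-04) with PM10.

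Both effectors rose. BAX, the cytosolic effector, was at 49.8 and 50.5 FPKM in normal hIECs, 56.9 and 58.1 with PM10, 84.6 and 97.6 in inflamed hIECs, and 86.8 and 85.4 in inflamed hIECs with PM10. Cytokine-treated libraries were all above untreated ones, by a log2 fold change of 0.85 (SE 0.068, adjusted p = 4.15e-05) without PM10 and 0.57 (SE 0.068, adjusted p = 2.21e-04) with PM10. BAK1, which resides on the mitochondrion, was at 11.2 and 9.77 FPKM in normal hIECs, 11.7 and 12.6 with PM10, 16.8 and 15.002 in inflamed hIECs, and 18.1 and 15.8 in inflamed hIECs with PM10. Its increases were 0.56 (SE 0.095, adjusted p = 0.00192) and 0.45 (SE 0.095, adjusted p = 0.00429), with no overlap between cytokine-treated and other libraries.

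The BH3-only genes split. PMAIP1, which encodes NOXA, a partner of MCL1, was at 9.54 and 8.10 FPKM in normal hIECs, 7.26 and 6.74 with PM10, 38.8 and 38.5 in inflamed hIECs, and 38.4 and 39.6 in inflamed hIECs with PM10. The 4 cytokine-treated libraries differed little among themselves and were 4.38-fold above normal hIECs as group means, or 5.57-fold with PM10 in both groups. The log2 fold changes were 2.02 (SE 0.077, adjusted p = 9.95e-07) and 2.32 (SE 0.077, adjusted p = 3.85e-07), larger in size than those of 98.1% and 98.3% of all genes tested.

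BCL2L11, which encodes BIM, a BH3-only protein that binds every pro-survival member, fell. It was at 3.79 and 3.43 FPKM in normal hIECs, 3.83 in both libraries with PM10, 1.60 and 1.39 in inflamed hIECs, and 0.847 and 0.697 in inflamed hIECs with PM10. Inflamed hIECs with PM10 were the lowest group and the normal groups the highest, without overlap. The log2 fold changes with cytokines were -0.89 (SE 0.088, adjusted p = 1.23e-04) and -1.45 (SE 0.088, adjusted p = 7.34e-06). In annotation 10.8% of its exon bases lie under MIR4435-2HG on the opposite strand, whose level rose from 19.3 to 44.9 FPKM with cytokines as group means, and from 14.5 to 51.9 with PM10 in both groups; reads of both genes in that stretch cannot be told apart.

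BBC3, which encodes PUMA, rose with cytokines in the absence of PM10. It was at 5.21 and 5.70 FPKM in normal hIECs, 6.76 and 6.73 with PM10, 9.17 and 9.92 in inflamed hIECs, and 7.28 and 7.58 in inflamed hIECs with PM10. Inflamed hIECs without PM10 were the highest and the other treated groups lay between them and normal hIECs. The log2 fold change was 0.71 (SE 0.068, adjusted p = 1.03e-04) without PM10 and 0.12 (95% interval -0.04 to 0.28, adjusted p = 0.15) with PM10, and these differed by -0.59 (adjusted p = 0.0175).

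BID, which links death receptors to mitochondria once caspase-8 has cut it, was at 3.76 and 3.45 FPKM in normal hIECs, 3.43 and 2.88 with PM10, 5.91 and 5.92 in inflamed hIECs, and 6.15 and 5.73 in inflamed hIECs with PM10. Its increases of 0.59 (SE 0.084, adjusted p = 7.94e-04) and 0.74 (SE 0.084, adjusted p = 1.84e-04) separated the cytokine-treated libraries from the others. BAD, which is held inactive by growth factor signals, was at 40.9 and 39.8 FPKM in normal hIECs, 39.6 in both libraries with PM10, 32.7 and 35.7 in inflamed hIECs, and 33.6 and 30.3 in inflamed hIECs with PM10. The cytokine-treated libraries were below the others, by -0.23 (SE 0.066, adjusted p = 0.0186) and -0.30 (SE 0.066, adjusted p = 0.00503), which were the smallest changes called. The first was lost without normal replicate 1 (-0.22, adjusted p = 0.0633) or inflamed replicate 1 (-0.17, adjusted p = 0.12). BAD shares 23.7% of its exon bases with GPR137 on the opposite strand, which also fell, by 0.26 on the log2 scale in each comparison (adjusted p = 0.0468 and 0.0395).

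**Figure D2:**
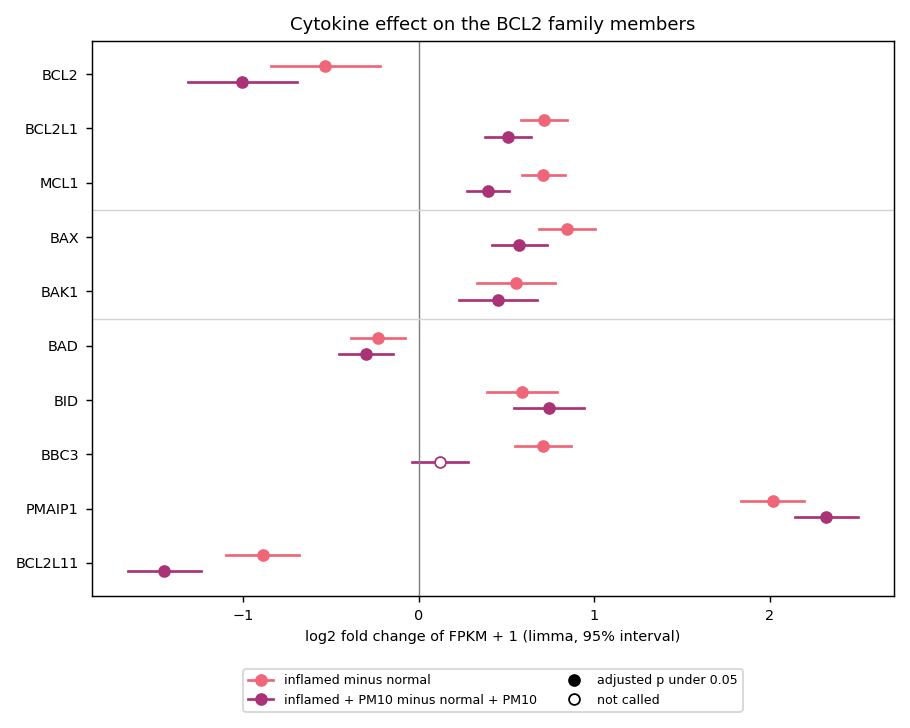
Log2 fold change of FPKM + 1 (x axis) with its 95% interval from limma for each member (y axis), for inflamed minus normal hIECs and for the same comparison with PM10 in both groups; filled points had an adjusted p under 0.05 and grey lines part the classes. PMAIP1 lay at 2.02 and 2.32, BCL2L11 at -0.89 and -1.45, and BBC3 with PM10 (0.12) was the only point not called.

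Both the sums and the make-up of the classes differed between the groups. The pro-survival transcripts summed to 56.3 and 53.7 FPKM in normal hIECs, 62.8 and 61.2 with PM10, 89.5 and 90.2 in inflamed hIECs, and 84.7 and 80.3 in inflamed hIECs with PM10. BAX and BAK1 together gave 61.0 and 60.3, 68.6 and 70.7, 101 and 113, and 105 and 101 FPKM in the same order, and the 5 BH3-only genes 63.2 and 60.5, 60.9 and 59.8, 88.1 and 91.4, and 86.2 and 84.0. All 3 sums were higher in each cytokine-treated library than in any other. Within the BH3-only sum, PMAIP1 took 15.1% and 13.4% in normal hIECs and 43.99% and 42.1% in inflamed hIECs, while BAD went from 64.7% and 65.8% to 37.1% and 39.1%. BCL2 made up 2.61% and 1.80% of the pro-survival sum in normal hIECs, 0.555% and 0.614% in inflamed hIECs, and 0.320% and 0.370% in inflamed hIECs with PM10.

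Ratios within a library do not depend on its scaling. BAX over BCL2 was 33.8 and 52.3 in normal hIECs, 40.5 and 33.1 with PM10, 170 and 176 in inflamed hIECs, and 320 and 288 in inflamed hIECs with PM10, where the low BCL2 values make it imprecise. In contrast, BAX over BCL2L1 stayed between 3.10 and 3.63 in all 8 libraries, and BAX over MCL1 between 1.27 and 1.58. MCL1 exceeded PMAIP1 by 4.10 and 4.61 times in normal hIECs, 5.92 and 6.04 times with PM10, 1.64 and 1.63 times in inflamed hIECs, and 1.48 and 1.37 times in inflamed hIECs with PM10. Cytokine-treated and other libraries did not overlap in BAX over BCL2 or MCL1 over PMAIP1, and they overlapped in BAX over BCL2L1 and BAX over MCL1.

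**Figure D3:**
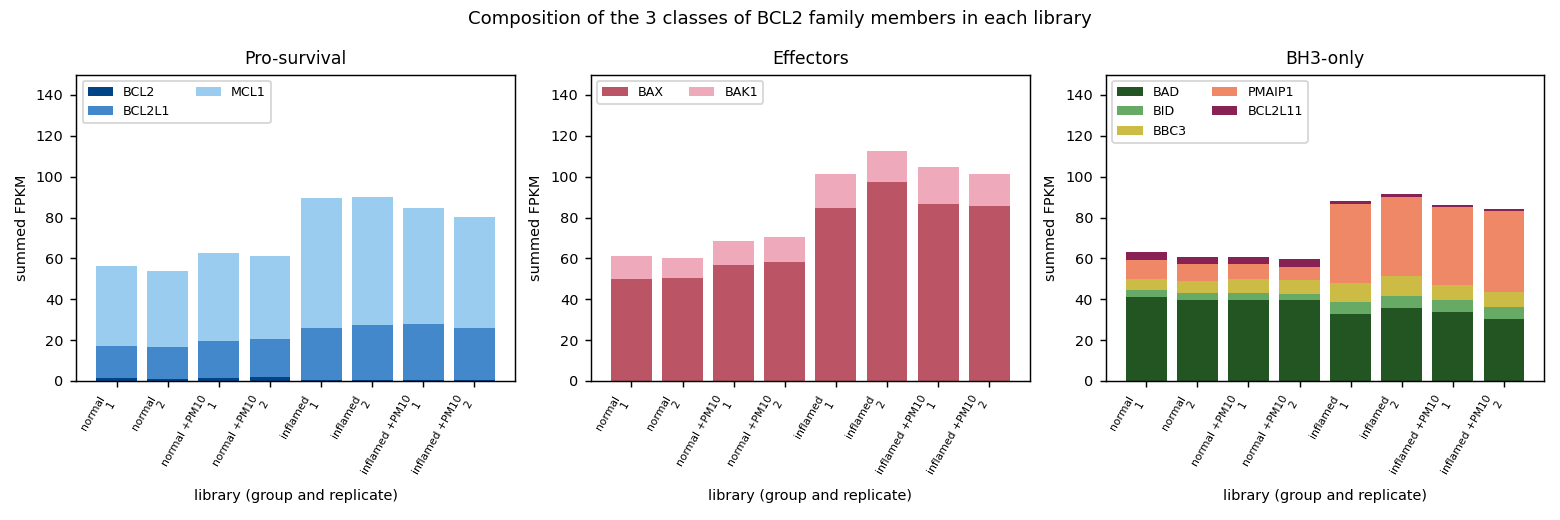
Summed FPKM (y axis) of the pro-survival, effector and BH3-only members in each library (x axis), with the part of each gene as a coloured segment. The BH3-only bars rose from 59.8 to 63.2 FPKM in libraries without cytokines to 84.0 to 91.4 with them, and the PMAIP1 segment (orange) grew the most.

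The second question was whether PM10 altered the family, and whether it did so differently in normal and inflamed hIECs. In normal hIECs, only BCL2L1 rose with PM10, and no member fell, with 5.51% of all genes called higher and 3.72% lower. In inflamed hIECs, BCL2L11 and BBC3 fell with PM10 and no member rose, with 6.22% of all genes called higher and 9.02% lower. The test of the difference between these PM10 effects called BBC3, BCL2L11 and MCL1, each lower in inflamed hIECs, against 4.48% of genes called lower and 2.11% called higher. At an unadjusted p under 0.05, limma gave 4 members higher and 1 lower in normal hIECs. It gave 0 higher and 3 lower in inflamed hIECs, and 1 higher and 6 lower in the difference. The share of all genes at this unadjusted threshold was not computed, so these counts have no background to be read against. Each PM10 call of a member was lost when some single libraries were left out.

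In normal hIECs, BCL2L1 had a log2 fold change of 0.24 (SE 0.056, adjusted p = 0.0449) with PM10. The call was kept in 5 of 18 alternative settings. It was lost, with little change in the value, when any one library except normal replicate 1 was left out, with an adjusted p of 0.068 to 0.175. Scaling decided which member was called: with median centring and with quantile normalization BCL2L1 was not called (0.16, adjusted p = 0.119, and 0.17, adjusted p = 0.0925), while PMAIP1 was called lower (-0.35, adjusted p = 0.0207, and -0.36, adjusted p = 0.0173). In the main analysis BBC3 had a value of 0.26 (95% interval 0.11 to 0.42, adjusted p = 0.0533) and PMAIP1 of -0.29 (95% interval -0.47 to -0.11, adjusted p = 0.0565), neither of them called; without normal replicate 2, PMAIP1 was called at -0.40 (adjusted p = 0.025). The other 7 members lay between -0.15 and 0.22, with adjusted p-values of 0.11 or more. The normal group held the library with the largest mitochondrial share, and the median of all genes was 0.06 in this comparison; without mitochondrial genes in the scaling it was 0.10, and BBC3 was also called (0.33, adjusted p = 0.032).

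In inflamed hIECs, BCL2L11 fell by 0.49 on the log2 scale with PM10 (SE 0.088, adjusted p = 0.0126), or 1.93-fold between group means. The call was lost without inflamed replicate 1 (-0.43, adjusted p = 0.0798) and without inflamed PM10 replicate 2 (-0.43, adjusted p = 0.0754). BBC3 fell by 0.32 (SE 0.068, adjusted p = 0.0219) and lost its call without any one of the 4 inflamed libraries, with an adjusted p of 0.0643 to 0.128. MCL1, at -0.19 (95% interval -0.31 to -0.07), missed the threshold with an adjusted p of 0.0502 and passed it in 8 of 18 alternatives, among them without either normal library (adjusted p = 0.0307 for each). BCL2 gave -0.25 (95% interval -0.56 to 0.06, adjusted p = 0.238). PMAIP1 gave 0.01 (95% interval -0.17 to 0.19, adjusted p = 0.933) and BID 0.004 (95% interval -0.19 to 0.20, adjusted p = 0.988).

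The difference between the PM10 effects, inflamed minus normal, was -0.59 for BBC3 (SE 0.096, adjusted p = 0.0175), -0.56 for BCL2L11 (SE 0.12, adjusted p = 0.0431) and -0.32 for MCL1 (SE 0.073, adjusted p = 0.0485). For each of these genes, the value was above 0 in normal hIECs and below 0 in inflamed hIECs. In normal hIECs the values were 0.26 for BBC3, 0.07 for BCL2L11 and 0.13 for MCL1, none of them called. MCL1 was not called in inflamed hIECs either. The difference for BBC3 was lost on leaving out either normal PM10 library, inflamed replicate 2 or either inflamed PM10 library (adjusted p = 0.0596 to 0.0735). That for BCL2L11 was lost without any one library but normal replicate 1 (adjusted p = 0.0775 to 0.136), and that for MCL1 likewise (adjusted p = 0.0643 to 0.162). BAX (-0.27, adjusted p = 0.144), BCL2 (-0.47, adjusted p = 0.183) and BCL2L1 (-0.20, adjusted p = 0.18) were not called, nor was PMAIP1 (0.31, adjusted p = 0.148), which was called without normal replicate 2 (0.41, adjusted p = 0.0346).

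**Figure D4:**
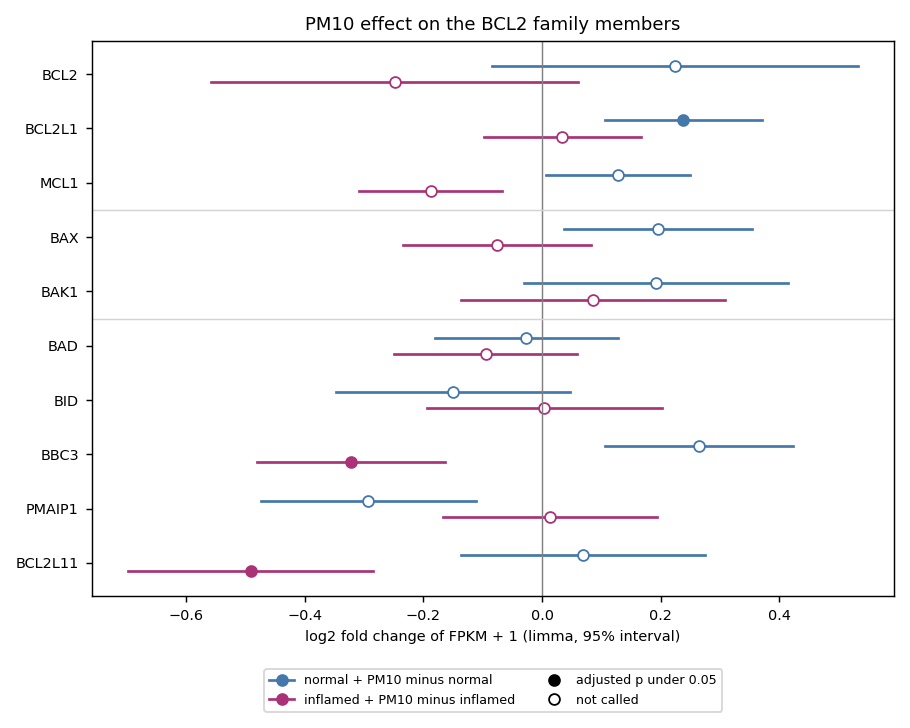
Log2 fold change of FPKM + 1 with PM10 (x axis) and its 95% interval from limma for each member (y axis), in normal and in inflamed hIECs; filled points had an adjusted p under 0.05. Only BCL2L1 in normal hIECs (0.24) and BBC3 and BCL2L11 in inflamed hIECs (-0.32 and -0.49) were called.

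Of 14 other genes of the family, 9 could be tested, and the largest log2 fold changes of the family, those of BCL2A1, lay among them. Without PM10, 6 rose and 2 fell with cytokines, where 25.9% of all genes tested were called higher and 30.3% lower. With PM10 in both groups 6 rose and 3 fell, against 25.8% and 39.6% of all genes. BCL2A1, a pro-survival gene known as a target of NF-kB, was at 0.781 and 0.593 FPKM in normal hIECs, 0.888 and 0.838 with PM10, 14.3 and 17.9 in inflamed hIECs, and 23.8 and 21.0 in inflamed hIECs with PM10. BCL2A1 passed the filter of 1 FPKM only through the cytokine-treated libraries. The tests of its rise, and its place in these counts, are thus not independent of the filter. It rose by a log2 fold change of 3.34 (SE 0.12, adjusted p = 6.39e-07) without PM10 and 3.65 (SE 0.12, adjusted p = 3.33e-07) with PM10, and was the pro-survival transcript with the largest fold.

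BMF, a BH3-only gene tied to anchorage and the cytoskeleton, was at 14.5 and 12.6 FPKM in normal hIECs, 27.4 and 28.1 with PM10, 2.96 and 3.20 in inflamed hIECs, and 6.44 and 6.63 in inflamed hIECs with PM10. Each of the 4 groups stood apart, with PM10 raising the level and cytokines lowering it. The log2 fold change with PM10 was 0.99 (SE 0.075, adjusted p = 0.00115) in normal hIECs and 0.89 (SE 0.075, adjusted p = 7.93e-04) in inflamed hIECs, and the difference between them was -0.10 (95% interval -0.35 to 0.14, adjusted p = 0.609). With cytokines BMF fell by 1.83 without PM10 (adjusted p = 1.36e-06) and by 1.93 with PM10 (adjusted p = 7.91e-07). It was the only gene of this list called with PM10 in normal hIECs, where 5.51% of all genes tested were called higher and 3.72% lower. Its call there was lost when only those groups were fitted (adjusted p = 0.066).

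The other genes moved less. BCL2L13 rose with cytokines by 0.64 and 0.86, BOK, an effector-like gene, by 0.46 and 0.54, BCL2L2 (BCL-W) by 0.31 and 0.43, BECN1 by 0.32 and 0.42, and BNIP3 by 0.26 and 0.31, in the order without and with PM10. BCL2L12 fell by 0.38 and 0.41, and BNIP3L fell by 0.30 with PM10 in both groups. In annotation, 25.9% of the exon bases of BCL2L12 lie under IRF3 on the opposite strand, at a mean of 28.7 FPKM. The unstranded libraries cannot separate IRF3 from BCL2L12 there. Several of these calls without PM10 rested on single libraries: BECN1 lost its call in 7 of 8 fits with 1 library left out (adjusted p = 0.0594 to 0.17), BNIP3 without normal replicate 2, inflamed replicate 1 or inflamed replicate 2 (adjusted p = 0.0669 to 0.12), BCL2L2 without normal replicate 2 (0.24, adjusted p = 0.0581) or inflamed replicate 2 (0.23, adjusted p = 0.079), and BCL2L12 without normal replicate 2 (-0.31, adjusted p = 0.137) or inflamed replicate 1 (-0.25, adjusted p = 0.164). With PM10 in both groups, BCL2L12 and BNIP3 lost theirs without replicate 1 of either PM10 group (adjusted p = 0.0599 to 0.111), and BECN1 without replicate 2 of either (adjusted p = 0.077 and 0.0778). With PM10 in inflamed hIECs, BCL2L13 (0.36), BOK (0.32) and BCL2A1 (0.46) rose beside BMF, against 6.22% of all genes called higher and 9.02% lower. These 3 increases lost their calls when a single library was left out, for BCL2A1 without inflamed replicate 1 (0.31, adjusted p = 0.178) among others. BCL2L10, BCL2L14 and BCL2L15 were at 0 in all libraries. HRK was at 0 in the cytokine-treated libraries and at or under 1.06 FPKM in the others, and BIK was at or under 0.654 FPKM throughout.

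**Figure D5:**
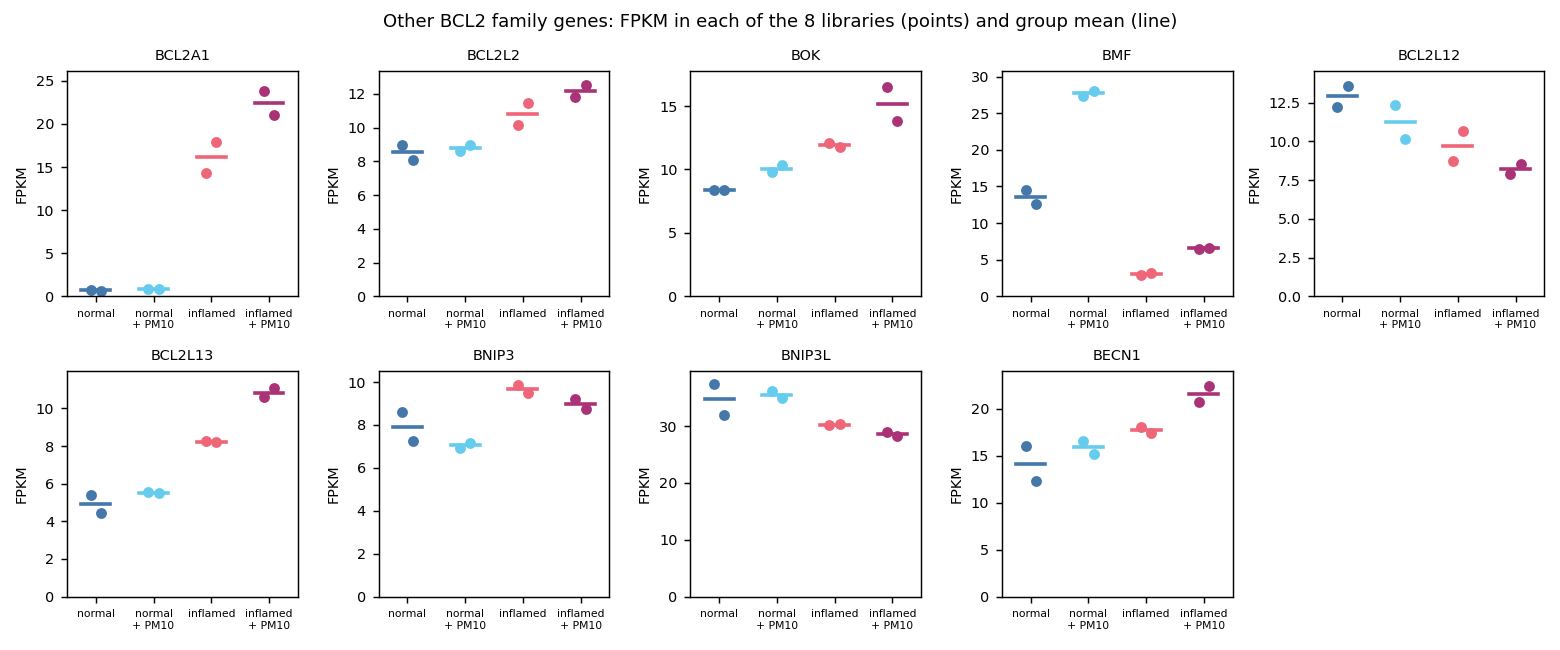
FPKM (y axis, linear from 0) of the 9 other BCL2 family genes tested, in the 4 groups (x axis); points are libraries and lines the mean of 2. BCL2A1 was below 1 FPKM in all libraries without cytokines and at 14.3 to 23.8 with them, and BMF was higher with PM10 and lower with cytokines.

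Of 15 genes for caspases, the apoptosome and mitochondrial factors, 6 rose and 3 fell with cytokines, against 25.9% and 30.3% of all genes. With PM10 in both groups 6 rose and 5 fell, against 25.8% and 39.6%. CASP8, the initiator caspase that cuts BID, rose by 1.31 (SE 0.080, adjusted p = 1.10e-05), from 2.93 to 8.72 FPKM as group means. CASP9, the initiator caspase of the apoptosome, was lower by -0.74 with PM10 in both groups (SE 0.12, adjusted p = 9.98e-04). With cytokines in the presence of PM10, CYCS, which encodes cytochrome c, rose by 0.64 and DFFB, a nuclease subunit, fell by 0.54. AIFM1 alone of the list rose with PM10 in normal hIECs (0.31, adjusted p = 0.02), where 5.51% of all genes were called higher. CASP9 alone fell with PM10 in inflamed hIECs (-0.43, adjusted p = 0.0487), where 9.02% of all genes were called lower. Both calls were lost without single libraries, AIFM1 without normal PM10 replicate 2 (adjusted p = 0.111) and CASP9 without inflamed PM10 replicate 2 (adjusted p = 0.222), among others.

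Of 6 inhibitors of apoptosis, 5 were tested. With cytokines 3 rose and 0 fell, against 25.9% and 30.3% of all genes. With PM10 in both groups 2 rose and 1 fell, against 25.8% and 39.6%. BIRC3 was listed at 0 in all 4 libraries without cytokines and stood at 4.05 and 3.92 FPKM in inflamed hIECs and 5.98 and 6.20 in inflamed hIECs with PM10. It passed the filter for testing only through the cytokine-treated libraries, so these counts could hold it only as a rise. BIRC5 (survivin), which also serves in mitosis, rose from 5.92 to 13.04 FPKM as group means without PM10, and its log2 fold change was 1.40 (adjusted p = 1.73e-05) with PM10 in both groups. It fell with PM10 in normal hIECs (-0.56, adjusted p = 0.0201), a call lost without normal replicate 2 (-0.45, adjusted p = 0.0745) or normal PM10 replicate 2 (-0.43, adjusted p = 0.0976). The 10 proliferation markers moved with it: their sum was 131 to 141 FPKM in normal hIECs, 105 to 109 with PM10, 226 to 233 in inflamed hIECs and 206 in both libraries of inflamed hIECs with PM10. Their part in the changes of the members was not tested. BIRC2 rose by 0.42 without PM10, a call lost without normal replicate 2 (adjusted p = 0.116) or inflamed replicate 1 (adjusted p = 0.15), and BIRC6 fell by 0.59 with PM10 in both groups.

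Of 24 regulators of the members, 23 were tested, and 9 rose and 5 fell with cytokines, against 25.9% and 30.3% of all genes. With PM10 in both groups 9 rose and 6 fell, against 25.8% and 39.6%. IRF1, an interferon-induced transcription factor, rose by 4.15, from 3.65 to 81.2 FPKM as group means. NFKB1 rose by 1.84 and STAT5A by 0.98. DDIT3, which encodes the stress factor CHOP, fell by 1.01 with cytokines in the presence of PM10 (SE 0.15, adjusted p = 8.31e-04). MARS1, at a mean of 57.7 FPKM, covers 27.2% of the exon bases of DDIT3 on the opposite strand. Reads of both genes in that stretch cannot be told apart. In normal hIECs 6 of these regulators rose and 2 fell with PM10, where 5.51% of all genes were called higher and 3.72% lower. These counts changed when 1 library was left out. In inflamed hIECs MYC rose with PM10 (0.43, adjusted p = 0.0203), and DDIT3 and TRIB3 fell (-0.64 and -0.83). Of all genes, 6.22% were called higher and 9.02% lower in that comparison. MYC lost its call without any one of the 4 inflamed libraries (adjusted p = 0.0673 to 0.116), and DDIT3 without any one library but the 2 of normal hIECs (adjusted p = 0.0601 to 0.153) as well as with median centring (-0.66, adjusted p = 0.0577) and with all genes above 0 (adjusted p = 0.0539). TRIB3, a gene induced by CHOP, was the only regulator whose PM10 effect differed between normal and inflamed hIECs (-0.68, adjusted p = 0.0303), and this was lost without any one of 6 libraries (adjusted p = 0.0871 to 0.105).

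The genes whose levels ran most like each member over the 8 libraries, by Pearson's r of log2(FPKM + 1), are given as a description, since 8 libraries in 4 groups leave many genes with a like pattern. Those nearest to PMAIP1 were POGLUT3, LASP1 and CD74 (r = 0.9993 to 0.9997), and those nearest to BCL2L11 were HERC2P9, CFDP1 and PTOV1-AS2. BCL2 ran with MUTYH, UBE2D3-AS1 and NT5C3B, BCL2L1 with CAVIN1, CGNL1 and SRXN1, and MCL1 with PSMA3, CCL3L1 and HLA-DRB5. BAX ran with CHRNA1, ZC3H12A and TP63, BAK1 with ANXA7, SLC16A1 and CDK7, and BAD with ZBED8, AC008267.5 and NFYB. BID was nearest to NCAPG, NANS and CENPE, of which NCAPG and CENPE serve in mitosis, and BBC3 to C19orf66, PHC2 and HIVEP1, with the lowest r of 0.98. Among the members themselves, BID and PMAIP1 had the highest r (0.988), followed by BCL2L1 and BAX (r = 0.985). BCL2 and BCL2L11 also ran together (r = 0.961), as did MCL1 and BAX (r = 0.968), among other pairs.

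In GENCODE release 44 (GRCh38), all members are protein-coding genes. BCL2 (chr18:63123346-63320128, minus strand), PMAIP1 (chr18:59899996-59904305, plus), BAX (chr19:48954815-48961798, plus) and BID (chr22:17734138-17774770, minus) share no exon bases with another gene. BCL2L11 (chr2:111119378-111168444, plus), BCL2L1 (chr20:31664452-31723989, minus) and BAD (chr11:64269830-64284704, minus) overlap the genes named above. MCL1 (chr1:150560895-150579738, minus), BAK1 (chr6:33572547-33580293, minus) and BBC3 (chr19:47220822-47232766, minus) overlap only genes that were at or near 0 in these libraries.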

How the data were processed

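RNA-seq of 8 libraries of 2D hIECs from the H9 line was used, 2 in each of 4 groups. Per the labels, the libraries were poly-A selected and unstranded. The authors used Cutadapt 3.7 and Sickle 1.33 for trimming, HISAT2 2.2.1 for alignment to GRCh38 and StringTie 2.2.0 for quantification. The deposited values are FPKM, 1 per gene and library. The annotation release is not given in the sources used here. Of 60558 gene identifiers, 99.5% were found in GENCODE release 44. Read counts were not used here, so depth is given only by the lowest FPKM above 0.

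The authors' FPKM values were compared as log2(FPKM + 1) by limma 3.58.1 in R 4.3.3, letting the variance follow the mean. A single fit held all 8 libraries and the 14206 genes that reached 1 FPKM in 2 or more of them. A gene could pass this filter through 1 side of a comparison alone, as BCL2, BCL2A1 and BIRC3 did with cytokines. The contrasts were cytokines without PM10, cytokines with PM10, PM10 on normal hIECs, PM10 on inflamed hIECs and their interaction. They share groups, so they are not independent. Benjamini-Hochberg adjustment was made over all genes in each contrast, with 0.05 as the threshold. An exact permutation test of 2 against 2 libraries cannot go below p = 0.333 and was not used.

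The 10 members and the lists of other genes were chosen with earlier results of these data known. The genes named are all members, every other BCL2 family gene tested, up to 5 genes per pathway list with the largest change among those called, and IRF1. Some genes that this rule names are not reported here. AIFM1, MYC, TRIB3, MIR4435-2HG, GPR137, ABALON, IRF3 and MARS1 were named after their values were seen. For each member, the 3 genes tested with the highest Pearson's r were named. Sequences came from RefSeq's promoter table (GRCh38.p14). In all, 18 alternatives were tried: another pseudocount (0.1 or 0.5), 2 other filters, 3 other scalings, a fit of only the groups compared, no trend, a replicate block, and each of the 8 libraries left out in turn. FPKM were not rescaled in the main analysis.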

Additional observations from a re-analysis of the deposited data

Results flagged for a closer look

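For 5 of the genes named, the interaction term in limma was called, a test of whether the PM10 effect differed between normal and inflamed cells. BBC3 had a difference of -0.59 (adjusted p = 0.0175): the 2 normal libraries were at 5.21 and 5.70 FPKM and those with PM10 at 6.76 and 6.73, a difference that was not called, and the inflamed ones fell from 9.17 and 9.92 to 7.28 and 7.58. BCL2L11 had a difference of -0.56 (adjusted p = 0.0431) and MCL1 of -0.32 (adjusted p = 0.0485). TRIB3 gave -0.68 (adjusted p = 0.0303), with 13.5 and 14.2 FPKM in inflamed hIECs and 7.39 and 7.34 with PM10. BIRC3 gave 0.51 (adjusted p = 0.0399), which is the value within inflamed hIECs, since it was listed at 0 in the other groups. Each of these calls was lost in some of the alternatives and none held in every leave-one-out fit. No group had the 4 libraries that a check for outlying samples needs.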

How the results depend on the processing

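The direction of no called member value turned in 885 recomputed values under 18 alternatives; 825 kept their side of the threshold, 46 lost a call and 14 gained one. Among the members, calls with cytokines were lost only for BCL2 and BAD, as given above, and the counts with cytokines (10 and 9) stayed within 1.5 times. For PM10 on normal hIECs, the count of 1 became 0 with all genes above 0, with only the groups compared, without the trend and with the replicate block, and 2 without mitochondrial genes; leaving out 1 library gave 0 to 1. With median centring and quantile normalization it stayed at 1, but the member called was PMAIP1 (lower) and not BCL2L1 (higher). For PM10 on inflamed hIECs, the count of 2 became 4 with only the groups compared, and 0 to 3 with 1 library left out. For the interaction, the count of 3 became 1 with all genes above 0, and 0 to 3 with 1 library left out. The cause was not tested.

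Replicates shared only a number: the deviations of replicate 1 correlated between groups at -0.0015 to 0.079. The replicate block changed no count of members by over 1.5 times except that of PM10 on normal hIECs, where it gave 0.

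Over all genes, PM10 on normal hIECs gave 1311 calls, but 23 with only those groups fitted. Of the 1311 calls 59.7% were higher, 37.8% with median centring, 49.8% with quantile normalization and 75.3% without mitochondrial genes; for the interaction the share was 32.0%, 49.2%, 46.6% and 27.2%. BCL2 could not be tested under a mean of at least 1 FPKM. FPKM without counts limits what can be said of BCL2 and BCL2L11 in inflamed hIECs with PM10. There BCL2 lay near the lowest values the files hold, and BCL2L11 was low, at 0.847 and 0.697 FPKM. With 2 libraries per group, small PM10 effects rest on single libraries.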
